A study of Mus musculus with 32 samples.

Results

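The genes described here are 10 core genes of the unfolded protein response of the endoplasmic reticulum (ER), namely *Hspa5*, *Hsp90b1*, *Dnajb9*, *Herpud1*, *Xbp1*, *Ern1*, *Atf6*, *Sdf2l1*, *Pdia4* and *Calr*. They were chosen by name, because STING, the adaptor of the cytosolic DNA sensor cGAS, resides in the ER membrane. Earlier results of these data were known when they were chosen. They were located in the table of read counts by their Ensembl identifiers. All 10 were found among 54281 gene identifiers and all 10 were among the 15257 genes with enough reads to be tested. The question was whether their transcript levels moved after mouse macrophages lost *Trex1*, which encodes the ER-anchored exonuclease that degrades cytosolic DNA.

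RNA sequencing was performed on bone marrow derived macrophages (BMDMs), grown in medium with L929 cell supernatant. The cells carried either 2 floxed *Trex1* alleles (Trex1 FL/FL) or 1 floxed and 1 wild type allele (Trex1 WT/FL), and every group also carried R26 CreERT2, a Cre recombinase made in all cells from the *Rosa26* locus and switched on by tamoxifen. Cells of both genotypes were treated with 2 µg/ml 4-hydroxytamoxifen (4-OHT) for 22 h or left untreated, and were harvested on days 1, 2, 3 and 4, which gave 16 groups of 2 libraries and 32 libraries in all. *Trex1* can be lost completely only in 4-OHT-treated Trex1 FL/FL cells, whereas 4-OHT-treated Trex1 WT/FL cells keep their wild type allele and serve as the control for Cre activity and 4-OHT. These controls can also lose their floxed allele, and their mean *Trex1* level was lower with 4-OHT than without on each day. The genotype comparison after 4-OHT thus sets loss of 2 alleles against loss of 1. The labels do not tie a library to an animal or a culture batch, so p-values measure the spread between these samples, which may be technical. In bulk samples such as these, a lower value can mean fewer cells of a kind or less RNA per cell, and these cannot be told apart.

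Libraries held 35120505 to 63760884 counts (median 44841991). *Trex1* itself had 0 counts in both 4-OHT-treated Trex1 FL/FL libraries of days 1, 3 and 4, and 14 and 9 counts in those of day 2, against 758 to 3622 counts in the 4-OHT-treated Trex1 WT/FL libraries. In CPM (counts scaled to library size), mean *Trex1* in 4-OHT-treated Trex1 WT/FL cells was 13.58, 57.24, 74.18 and 48.39 on days 1 to 4. In untreated Trex1 WT/FL cells it was 30.29, 119, 135 and 84.27. All 8 macrophage markers tested were present in every library, with a summed level of 15300 to 48700 CPM. Summed markers of T cells, fibroblasts and dendritic cells stayed at or below 0.767, 2.27 and 2.67 CPM, those of granulocyte progenitors between 3.48 and 15.1 CPM, and those of B and plasma cells between 139 and 343 CPM, almost all of it from *Ighm* and *Sdc1*, while *Cd79a*, *Jchain* and *Mzb1* reached at most 3, 10 and 1 counts in any library. The 2 untreated Trex1 FL/FL libraries of day 1 stood further apart from each other than any other pair, with a chi-square of 47 per degree of freedom against 8.55 to 19.5 in the other groups.

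The unfolded protein response adjusts the folding capacity of the ER to its load. Its 3 sensors in the ER membrane are IRE1 alpha (encoded by *Ern1*), ATF6 and PERK (encoded by *Eif2ak3*), and all of them are held inactive by the chaperone BiP (encoded by *Hspa5*) until unfolded proteins draw BiP away. Activated IRE1 alpha splices the *Xbp1* messenger RNA so that it encodes an active transcription factor, ATF6 is cut in the Golgi to release another, and PERK phosphorylates eIF2 alpha and thereby favours translation of ATF4. The transcription factors released in this way act on chaperone and degradation genes through short promoter motifs, and macrophages, which secrete many proteins, rely on this response. Gene-level counts do not separate spliced from unspliced *Xbp1*, so they do not report the activity of IRE1 alpha.

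Promoter sequences are shown for the members that held a known response motif within the 250 bases before their RefSeq start. The genotype difference of 3 of these 4 genes, *Hspa5*, *Calr* and *Hsp90b1*, passed the test on at least 1 day, not all in the same direction. That of *Pdia4*, which held no motif, and of *Atf6*, which had no promoter entry, passed as well. A link between motifs and genotype differences was not tested. Of the 10 members, 9 had an entry in the RefSeq promoter table (built on GRCm38.p6). Each sequence was found once on its chromosome in GRCm39 and is written 5′ to 3′ on the strand of the gene, in lower case, with motif matches in capitals. The motifs searched on both strands were the ER stress response element (ERSE, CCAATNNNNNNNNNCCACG), ERSE-II (ATTGGNCCACG) and the core of the unfolded protein response element (UPRE, TGACGTG).
Hspa5: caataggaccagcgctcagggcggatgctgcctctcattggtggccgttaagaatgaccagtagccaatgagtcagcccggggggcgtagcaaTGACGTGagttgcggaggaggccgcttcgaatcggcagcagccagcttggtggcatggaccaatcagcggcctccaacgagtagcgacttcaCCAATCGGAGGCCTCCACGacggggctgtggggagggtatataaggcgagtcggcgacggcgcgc
Hsp90b1: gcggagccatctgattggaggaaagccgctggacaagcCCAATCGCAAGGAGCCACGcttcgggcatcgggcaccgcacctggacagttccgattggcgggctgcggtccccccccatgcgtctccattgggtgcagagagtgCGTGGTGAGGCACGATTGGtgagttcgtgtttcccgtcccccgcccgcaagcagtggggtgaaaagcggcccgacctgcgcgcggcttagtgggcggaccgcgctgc
Calr: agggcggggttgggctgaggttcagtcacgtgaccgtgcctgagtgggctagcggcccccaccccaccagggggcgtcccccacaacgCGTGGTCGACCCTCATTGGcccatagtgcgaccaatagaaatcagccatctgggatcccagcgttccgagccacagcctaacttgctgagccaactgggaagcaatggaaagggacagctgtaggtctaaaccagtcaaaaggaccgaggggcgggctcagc
Herpud1: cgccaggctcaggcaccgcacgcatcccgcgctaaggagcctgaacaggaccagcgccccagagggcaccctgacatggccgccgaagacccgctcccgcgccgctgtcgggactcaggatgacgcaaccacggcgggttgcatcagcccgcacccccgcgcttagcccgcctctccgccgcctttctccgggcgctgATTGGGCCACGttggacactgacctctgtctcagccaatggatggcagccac

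The *Hspa5* window lies at chr2:34661852-34662101 on the plus strand, with an ERSE 65 bases and a UPRE core 157 bases before the RefSeq start. The *Hsp90b1* window lies at chr10:86541309-86541558 on the minus strand and holds an ERSE 212 bases before the start and another in the opposite orientation 107 bases before it. The *Calr* window lies at chr8:85573561-85573810 on the minus strand, with an ERSE in the opposite orientation 162 bases before the start, and the *Herpud1* window lies at chr8:95112807-95113056 on the plus strand, with an ERSE-II 52 bases before the start. The GENCODE vM39 gene models begin further upstream than the RefSeq starts and cover the last 120, 138, 107 and 35 bases of the *Hspa5*, *Hsp90b1*, *Calr* and *Herpud1* windows. No matches overlapped each other. An ERSE was present in 3 of the 9 members, compared with 39 of the 32851 promoters of the table (0.119%), an ERSE-II in 1 member and 12 promoters (0.0365%), and a UPRE core in 1 member and 661 promoters (2.01%). These counts cover table entries of 300 bases, of which 50 lie after the start. Members were counted as genes, and the whole table as promoter entries. Both the members and the motifs were taken as known parts of this response, so the contrast is a description and not a test. The ERSE was not particular to the members. Of the other lists described below, it was in 5 of 15 chaperone and folding enzyme genes and 2 of 12 ER-associated degradation genes. It was in 0 of 13 translocation and export genes, 0 of 10 PERK and ATF4 genes and 0 of 9 signalling partners. The letters of these motifs are not in the windows of *Dnajb9*, *Xbp1*, *Ern1*, *Sdf2l1* and *Pdia4*. These matches describe the sequence and are not measured binding sites.

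All 10 genes were detected in every library, with no count below 1214. On the scale of CPM per kilobase of exon, which allows levels to be compared between genes, the median over the 32 libraries was highest for the lectin chaperone gene *Calr* (280.8), followed by *Hspa5* (222.8), *Hsp90b1* (162.8), which encodes the ER paralogue of HSP90, and *Sdf2l1* (66.53), which encodes a component of an ER chaperone complex. The disulfide isomerase gene *Pdia4* (23.58), *Xbp1* (23.14), *Herpud1* (15.12), whose product serves ER-associated degradation, *Atf6* (13.62), the DnaJ co-chaperone gene *Dnajb9* (11.27) and *Ern1* (7.068) were lower. The ranges of neighbours in this order overlapped, for example 211.6 to 402.4 for *Calr* and 133.5 to 366.3 for *Hspa5*, except those of *Sdf2l1* (46.09 to 146) and *Pdia4* (14.25 to 33.08). Across the 32 libraries the highest CPM of a gene was between 1.55 times (*Atf6*) and 3.22 times (*Herpud1*) its lowest.

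**Figure D1:**
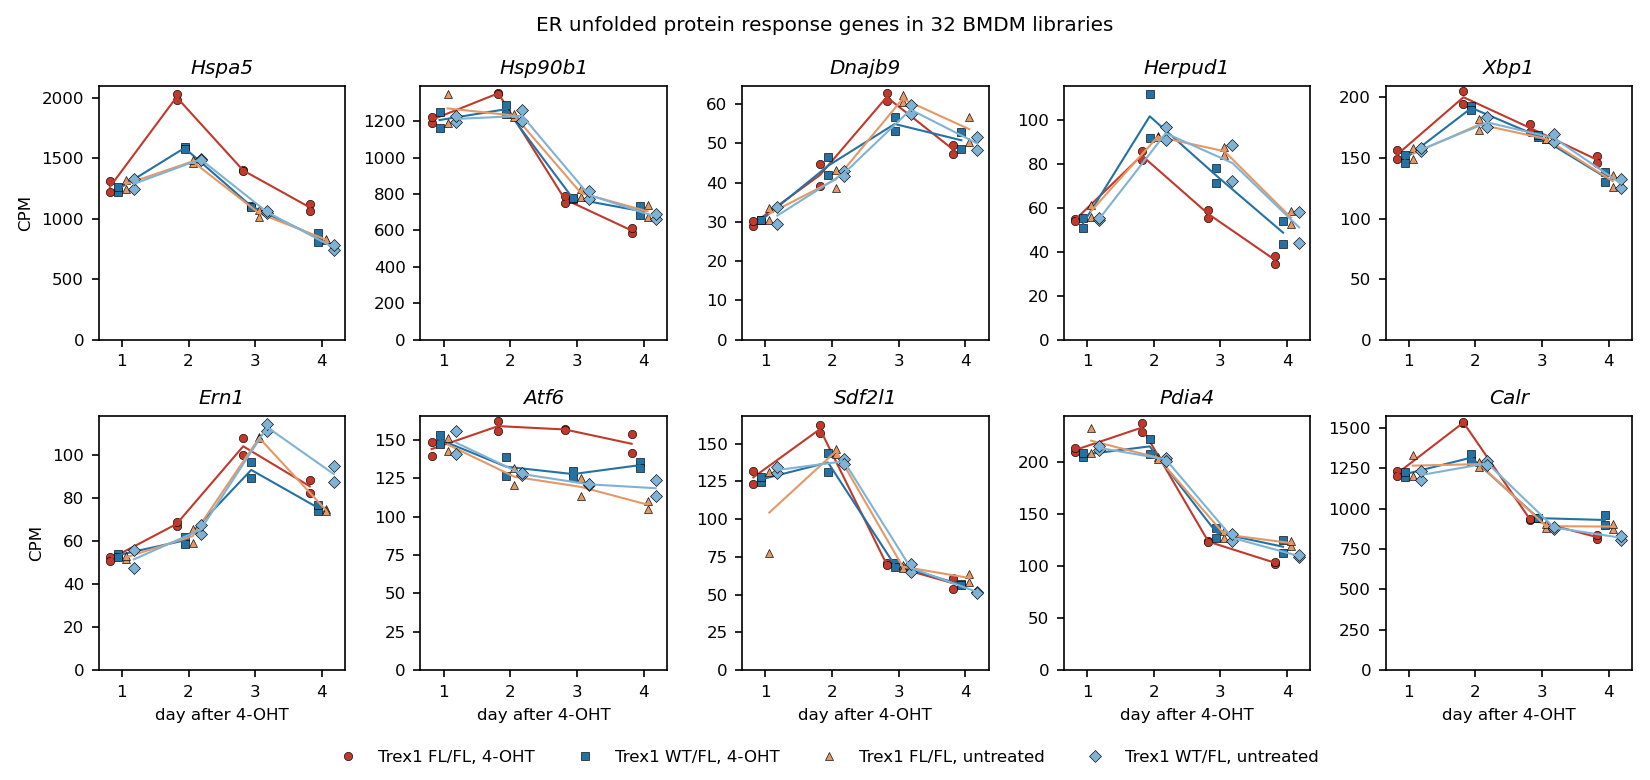
Level of the 10 genes in CPM (vertical axis, starting at 0) on days 1 to 4 (horizontal axis) in the 4 combinations of genotype and treatment. Each point is 1 library and lines join the means of the 2 libraries of a group. *Hspa5* peaked on day 2 in all arms and was highest in 4-OHT-treated Trex1 FL/FL cells on days 2 to 4, for instance 1980 and 2035 CPM on day 2.

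Most levels differed between the days of harvest. Averaged over the 4 combinations of genotype and treatment, 7 members rose and 1 fell from day 1 to day 2, at an adjusted p below 0.01 (quasi-likelihood test of edgeR, p adjusted after Benjamini and Hochberg), the threshold behind every gene called here. Of all genes 60% passed that test, 30.8% higher and 29.2% lower. *Herpud1* rose most, by 0.75 on the log2 scale (SE 0.0601), followed by *Dnajb9* (0.45), *Hspa5* (0.36), *Ern1* (0.29), *Xbp1* (0.29), *Sdf2l1* (0.24) and *Calr* (0.14). *Atf6* was the gene that fell on average, with a log2 difference of -0.12, although its mean in 4-OHT-treated Trex1 FL/FL cells was 144 CPM on day 1 and 158.9 CPM on day 2, while *Hsp90b1* (0.05) and *Pdia4* (0.00) did not pass the test.

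From day 2 to day 3, 2 members rose and 7 fell, whereas 58% of all genes passed, 29.7% higher and 28.3% lower. *Ern1* and *Dnajb9* rose by a further 0.71 and 0.48. The chaperone and folding genes all fell, with log2 differences of -1.07 for *Sdf2l1*, -0.73 for *Pdia4*, -0.69 for *Hsp90b1*, -0.56 for *Calr* and -0.51 for *Hspa5*, and *Herpud1* (-0.33) and *Xbp1* (-0.15) fell as well. From day 3 to day 4, 8 members fell and none rose, against 30.9% of all genes called, 15.1% higher and 15.8% lower. *Herpud1* fell most (-0.64), *Pdia4* least (-0.18), and *Calr* (-0.08, adjusted p = 0.013) and *Atf6* (-0.05) missed the threshold. The summed level of 8 proliferation markers moved over the same days, from 2030 to 2270 CPM on day 1 to between 38.7 and 209 CPM on day 4, and the part of this change in the day differences was not tested.

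After 4-OHT, *Hspa5* was the only member called on all of days 2, 3 and 4. Its level was 0.34 to 0.37 higher on the log2 scale in Trex1 FL/FL than in Trex1 WT/FL cells on these days. Of the 10 members, 0 were called on day 1, 3 on day 2 (*Hspa5*, *Atf6* and *Calr*, all higher), 2 on day 3 (*Hspa5* and *Atf6*, both higher) and 4 on day 4 (*Hspa5* higher, and *Hsp90b1*, *Pdia4* and *Calr* lower). The share of all tested genes called was 0.0197% on day 1, 8.17% on day 2 (5.69% higher and 2.48% lower), 12.1% on day 3 (6.69% higher and 5.42% lower) and 21.5% on day 4 (9.84% higher and 11.7% lower). The unadjusted p was under 0.05 for 0, 5, 5 and 8 members on these days, and for 308, 3509, 4477 and 5917 of the 15257 genes. The median log2 difference of the 10 genes was 0.01, 0.14, 0.03 and -0.02 on days 1 to 4, beside -0.01, -0.01, -0.01 and -0.04 over all tested genes. No member reached the additional log2 fold change of 1.5 that the study used as a threshold, which 0.0131%, 0.583%, 0.872% and 2.98% of all genes did on days 1 to 4.

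*Hspa5*, which encodes BiP, was at 1219 and 1310 CPM in the 4-OHT-treated Trex1 FL/FL libraries of day 1 and at 1225 and 1266 CPM in those of Trex1 WT/FL, so that the groups overlapped. On day 2 it was at 1980 and 2035 CPM in Trex1 FL/FL and at 1594 and 1580 CPM in Trex1 WT/FL cells. Untreated cells were at 1465 and 1486 CPM (Trex1 FL/FL) and 1496 and 1491 CPM (Trex1 WT/FL) that day. Both treated Trex1 FL/FL libraries were thus above all 6 other libraries of the same day. This was also the case on day 3 (1405 and 1397 CPM against 1019 to 1108) and on day 4 (1125 and 1065 CPM against 741.4 to 881.6). The log2 difference between the genotypes after 4-OHT was 0.02 on day 1, 0.34 on day 2 (SE 0.0511, adjusted p = 1.97e-05), 0.34 on day 3 (SE 0.0512, adjusted p = 1.67e-05) and 0.37 on day 4 (SE 0.0512, adjusted p = 1.69e-06). Without 1 library at a time it remained past the threshold on all 3 days. With 2 libraries a group, an exact permutation test of a single gene cannot go below a two-sided p of 0.333. These calls instead rest on the gene's spread within all 16 groups, moderated by that of the other genes. *Hspa5* shares 38.92% of its 31-base words with other genes, nearly all of them with *Rabepk*, whose gene model overlaps it on the opposite strand. Whether the counting used strand is not given in the sources used here, and without it reads from the 2 genes cannot be told apart in these stretches. *Rabepk* was at 6.53 to 10.9 CPM in the 4-OHT-treated libraries of days 2 to 4 and was itself higher in Trex1 FL/FL cells on day 3 (0.64, adjusted p = 0.000427) and day 4 (0.52, adjusted p = 0.00183).

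Of the genes for the sensors and their effector, *Atf6* was higher on days 2 and 3, whereas *Ern1* and *Xbp1* were not called after 4-OHT. *Atf6* was at 162.4 and 155.4 CPM in Trex1 FL/FL and at 138.7 and 126.2 CPM in Trex1 WT/FL controls on day 2, and at 157.2 and 156.2 against 129.4 and 125.9 CPM on day 3. The libraries of the 2 genotypes did not overlap on either day, and both Trex1 FL/FL libraries were also above all 6 other libraries on days 2, 3 and 4. The log2 difference was -0.06 on day 1, 0.26 on day 2 (SE 0.0646, adjusted p = 0.00539), 0.30 on day 3 (SE 0.0645, adjusted p = 0.00135) and 0.14 on day 4 (adjusted p = 0.0994). The day 2 call was lost without either Trex1 FL/FL library and without replicate 2 of Trex1 WT/FL (0.20 to 0.29), and the day 3 call without any 1 of the 4 libraries (0.28 to 0.32). Treated genotypes did not overlap on day 1 either for *Dnajb9* and *Ern1* (Trex1 FL/FL lower) and *Pdia4* (higher), none of them called. How many of all genes had no overlap, or lay outside all 6 other libraries, was not counted. This limit applies to every such statement here.

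*Xbp1* was at 194.8 and 205.3 CPM in Trex1 FL/FL and 192.9 and 189.5 CPM in Trex1 WT/FL controls on day 2, and at 151.5 and 145.6 against 130 and 138.7 CPM on day 4. Its values in Trex1 FL/FL cells were slightly above all 6 other libraries on days 2, 3 and 4, but the log2 differences of 0.07, 0.06 and 0.15 (SE 0.0542 and adjusted p = 0.0431 on day 4) did not pass the threshold. *Xbp1* shares 20.69% of its words with *Ccdc117*, which overlaps it on the opposite strand. *Ccdc117* was at 26.2 to 37.9 CPM in these libraries and had no difference past the threshold. *Ern1* showed log2 differences of -0.05, 0.17, 0.16 and 0.18 on days 1 to 4, the last with an adjusted p of 0.0484.

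Of the chaperone and folding genes, *Calr* was called higher on day 2, and *Calr*, *Hsp90b1* and *Pdia4* were called lower on day 4. *Calr* encodes calreticulin, which binds glycoproteins together with calcium. It was at 1531 and 1535 CPM in Trex1 FL/FL and at 1336 and 1296 CPM in Trex1 WT/FL controls on day 2, at 931.2 and 933.2 against 938.8 and 943.5 CPM on day 3, and at 810.9 and 836.6 against 897.3 and 961.5 CPM on day 4. Trex1 FL/FL cells were thus the higher group on day 2 and the lower on day 4, without overlap on either day. The log2 difference was 0.22 on day 2 (SE 0.049, adjusted p = 0.00218), -0.01 on day 3 and -0.17 on day 4 (SE 0.0491, adjusted p = 0.00739). Both calls were lost without either Trex1 FL/FL library, without replicate 2 of Trex1 WT/FL, without the filter on low counts (0.21 and -0.18) and in a fit of only the libraries compared (0.23 and -0.14). On day 4 the call was also lost with RLE factors (-0.16). On day 4 the treated Trex1 FL/FL libraries overlapped with the untreated Trex1 WT/FL libraries (806.9 and 832.5 CPM).

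*Hsp90b1*, which encodes GRP94 and shares 16.47% of its words with other genes, mainly *Gm66230* on the opposite strand, was at 585 and 615.2 CPM in Trex1 FL/FL and at 682.5 and 733.5 CPM in Trex1 WT/FL controls on day 4, and untreated cells were at 662.1 to 738.3 CPM. *Pdia4* was at 102.2 and 104.1 against 112.4 and 124.9 CPM, and its untreated libraries were at 108.5 to 124.5 CPM. For both genes the 2 treated Trex1 FL/FL libraries were below all 6 others on day 4, whereas those of day 2 were above all 6 others of that day. The day 4 log2 difference was -0.24 for *Hsp90b1* (SE 0.0595, adjusted p = 0.00265) and -0.20 for *Pdia4* (SE 0.0578, adjusted p = 0.00866), and the day 2 differences of 0.10 and 0.12 did not pass the test. The *Hsp90b1* call was lost without replicate 1 of Trex1 FL/FL (-0.20) or replicate 2 of Trex1 WT/FL (-0.19), and the *Pdia4* call without either Trex1 FL/FL library or replicate 2 of Trex1 WT/FL (-0.21 to -0.12). In a fit of only the libraries compared both calls were lost (-0.21 and -0.17), and the *Pdia4* call also with RLE factors (-0.19) and without the filter on low counts (-0.20). The summed proliferation markers were at 38.7 to 42.6 CPM in Trex1 FL/FL and at 161 to 169 CPM in Trex1 WT/FL controls on day 4, and at 877 to 948 against 1140 to 1180 CPM on day 2. Their part in the day 2 and day 4 differences was not tested.

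*Sdf2l1* and *Dnajb9* were not called on any day. *Sdf2l1* had its largest log2 difference on day 2 (0.22, SE 0.139, adjusted p = 0.403), with 162.5 and 156.7 CPM in Trex1 FL/FL and 143.9 and 131.1 CPM in Trex1 WT/FL cells. *Dnajb9* had its largest on day 3 (0.17, SE 0.079, adjusted p = 0.15), with 62.94 and 60.7 against 53.18 and 56.75 CPM.

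*Herpud1*, a membrane protein gene of the degradation machinery, pointed the other way. It was at 81.72 and 85.67 CPM in Trex1 FL/FL and 91.58 and 111.4 CPM in Trex1 WT/FL controls on day 2, at 55.46 and 58.72 against 71.11 and 77.92 CPM on day 3, and at 34.55 and 37.9 against 43.4 and 53.89 CPM on day 4. On each of these days both Trex1 FL/FL libraries were below all 6 others. The log2 differences of -0.28 (SE 0.119, adjusted p = 0.154), -0.38 (SE 0.12, adjusted p = 0.0289) and -0.42 (SE 0.124, adjusted p = 0.0124) missed the threshold. They passed it without the filter on low counts on days 2, 3 and 4 (-0.29, -0.38 and -0.43), in a fit of only the libraries compared on day 3 (-0.38), and on day 4 with DESeq2 (-0.41) and without replicate 1 of Trex1 WT/FL (-0.57).

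**Figure D2:**
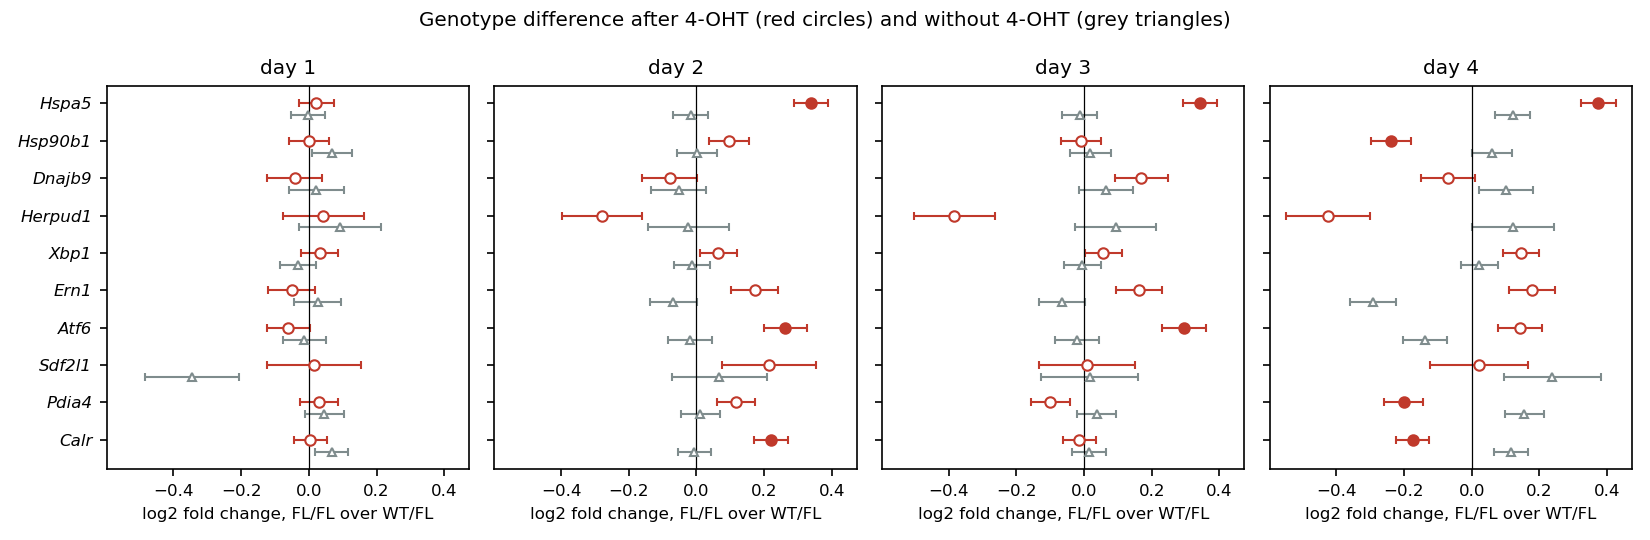
Log2 difference in level between Trex1 FL/FL and Trex1 WT/FL cells (horizontal axis) for each of the 10 genes (vertical axis) on days 1 to 4, after 4-OHT (red circles) and untreated (grey triangles). Bars are 1 SE from the fit of all 32 libraries, with 2 libraries a group, and filled symbols mark an adjusted p below 0.01. *Hspa5* lies at 0.34, 0.34 and 0.37 on days 2, 3 and 4 after 4-OHT, while no untreated symbol is filled.

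Untreated cells of the 2 genotypes had no member called on any day, beside 0% of all genes on days 1, 2 and 3 and 0.0655% on day 4. The unadjusted p was under 0.05 for 1, 0, 0 and 5 members, and for 1129, 588, 468 and 2414 of the 15257 genes. On day 4 *Ern1* was at 74.53 and 74.03 CPM in untreated Trex1 FL/FL and at 87.22 and 94.65 CPM in untreated Trex1 WT/FL cells, a log2 difference of -0.29 (SE 0.0681, adjusted p = 0.0285) that passed the threshold with DESeq2 and without the filter on low counts (-0.29 in both). *Pdia4* (0.16), *Hspa5* (0.12), *Calr* (0.12) and *Atf6* (-0.14) had adjusted p between 0.159 and 0.301. *Sdf2l1* on day 1 was at 131.4 and 77.28 CPM in untreated Trex1 FL/FL cells, the pair that stood apart, and at 130.5 and 134.5 CPM in untreated Trex1 WT/FL cells. Its difference of -0.34 (adjusted p = 0.619) passed the threshold when the first of these libraries was left out (-0.78) and without the filter on low counts (-0.34).

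4-OHT changed no member in Trex1 WT/FL cells on any day, and 0.00655%, 0.0918%, 0.341% and 0.216% of all genes on days 1 to 4. The unadjusted p was under 0.05 for 0, 0, 1 and 4 members, and for 378, 530, 1281 and 1080 of the 15257 genes. *Ern1* came closest to the threshold on day 3 (-0.28, adjusted p = 0.0557) and day 4 (-0.27, adjusted p = 0.0785), and *Calr* was at 0.18 on day 4 (adjusted p = 0.129). In Trex1 FL/FL cells 4-OHT changed 0, 3, 3 and 5 members on days 1 to 4, against 0.0131%, 11.1%, 15.7% and 21.4% of all genes. This comparison shares its treated libraries with the genotype comparison. *Hspa5* was 0.44, 0.42 and 0.40 higher on the log2 scale on days 2, 3 and 4 (adjusted p = 2.11e-07, 4.23e-07 and 4.85e-07), and *Atf6* 0.34, 0.39 and 0.45 higher (adjusted p = 0.000351, 3.83e-05 and 3.36e-06). *Calr* was 0.26 higher on day 2 (adjusted p = 0.000218). *Herpud1* was lower on day 3 (-0.58, adjusted p = 0.00103) and day 4 (-0.61, adjusted p = 0.000618), and *Hsp90b1* (-0.23, adjusted p = 0.00333) and *Pdia4* (-0.24, adjusted p = 0.00174) were lower on day 4. In untreated Trex1 FL/FL cells *Herpud1* had 83.68 and 87.58 CPM on day 3 and 52.47 and 58.41 CPM on day 4, above both treated libraries of the same day. The *Atf6* call of day 2, the *Herpud1* calls of both days and the *Hsp90b1* call were lost without replicate 1 of the treated or replicate 2 of the untreated group of that day, and the *Pdia4* call also without replicate 2 of the treated group.

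The interaction of genotype and 4-OHT tests whether 4-OHT moved a gene differently in the 2 genotypes. It called 0, 1, 1 and 3 members on days 1 to 4, against 0.00655%, 4.04%, 4.65% and 10.4% of all genes. *Hspa5* was called on day 2 (0.36, SE 0.0723, adjusted p = 0.00156) and day 3 (0.36, SE 0.0723, adjusted p = 0.00173), and missed the threshold on day 4 (0.25, adjusted p = 0.0151), which it passed with RLE factors (0.27) and with DESeq2 (0.27). The untreated genotypes were themselves 0.12 apart on day 4. The *Hspa5* calls were lost without replicate 2 of treated Trex1 FL/FL on day 2 (0.34), and on day 3 without replicate 1 of treated Trex1 FL/FL, replicate 2 of untreated Trex1 FL/FL or replicate 2 of untreated Trex1 WT/FL (0.32 to 0.35). On day 4 *Ern1* was called higher (0.47, SE 0.0963, adjusted p = 0.00079), and *Pdia4* (-0.36, SE 0.0816, adjusted p = 0.00238) and *Calr* (-0.29, SE 0.0694, adjusted p = 0.00349) lower. For these 3 genes the untreated genotypes differed in the opposite direction to the treated ones, by -0.29, 0.16 and 0.12 against 0.18, -0.20 and -0.17, none of the untreated differences past the threshold. The *Pdia4* and *Calr* calls were lost without replicate 1 of treated Trex1 FL/FL, replicate 2 of untreated Trex1 FL/FL, replicate 2 of treated Trex1 WT/FL or replicate 1 of untreated Trex1 WT/FL, and in a fit of only the libraries compared (-0.32 and -0.25), and the *Calr* call also without the filter on low counts (-0.29). *Atf6* reached 0.28, 0.32 and 0.28 on days 2 to 4 with adjusted p of 0.0671, 0.0277 and 0.0353.

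The change of the 4-OHT genotype difference from one day to the next called 1 member from day 1 to day 2, 0 from day 2 to day 3 and 0 from day 3 to day 4, against 3.02%, 0.905% and 3.7% of all genes. The unadjusted p was under 0.05 for 4, 3 and 3 members, and for 2306, 2258 and 2792 of the 15257 genes. The member called was *Hspa5*, whose difference grew by 0.32 (SE 0.0723, adjusted p = 0.00645) from day 1 to day 2, a call lost without any 1 of the libraries (0.27 to 0.34) except replicate 2 of treated Trex1 FL/FL on day 1, and with upper-quartile factors (0.29), without the filter on low counts (0.32) or with only the libraries compared (0.31). *Calr* moved by 0.22 over the first of these steps (adjusted p = 0.0718) and by -0.23 over the next (adjusted p = 0.068), neither of them called. Its change from the higher value on day 2 to the lower value on day 4 was not tested.

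The other genes of the response were taken from lists of its branches. The counts below stand beside 0.0197%, 8.17%, 12.1% and 21.5% of all tested genes called after 4-OHT on days 1 to 4. Of 18 further ER chaperone and folding enzyme genes, 0, 3, 2 and 6 were called after 4-OHT on days 1 to 4 (2 higher and 1 lower, 2 higher, and 3 higher and 3 lower), with median log2 differences of 0.10, 0.14 and 0.00 on days 2 to 4. *Hyou1*, which encodes an HSP70 relative that exchanges nucleotide on BiP, was higher on day 2 (0.30, SE 0.0611, adjusted p = 0.000905) and day 3 (0.34, SE 0.0614, adjusted p = 0.000209). *Dnajb11*, which encodes a BiP co-chaperone, was higher on day 2 (0.29) and day 4 (0.23), and the oxidase gene *Ero1a* was higher on day 3 (0.32). *Dnajc10*, which encodes an ER disulfide reductase, was lower on day 2 (-0.23) and day 4 (-0.43), and *Uggt1*, the glycoprotein folding sensor, was lower on day 4 (-0.65, SE 0.0667, adjusted p = 1.36e-08).

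Of 16 ER-associated degradation genes, 0, 1, 2 and 2 were called, against 0.0197%, 8.17%, 12.1% and 21.5% of all tested genes. These counts do not set the list apart from all genes. The genes called were higher on days 2 and 3 and lower on day 4. *Syvn1*, the gene of the ubiquitin ligase HRD1, was higher on day 2 (0.35) and day 3 (0.25), and *Derl1*, a retrotranslocation channel gene, was higher on day 3 (0.33). *Vcp* (-0.35) and *Sel1l* (-0.30), which encode the extracting ATPase and the partner of HRD1, were lower on day 4. Of 17 genes of translocation into and vesicle export from the ER, 0, 1, 4 and 4 were called, all higher on days 2 and 3, and 1 higher and 3 lower on day 4. They included *Sec23b* on day 2 (0.24), *Srprb* on day 3 (0.37) and day 4 (0.21), *Ssr2* on day 3 (0.26), and *Sec24d* (-0.47) and *Sec63* (-0.39) on day 4. Of 10 signalling partners of the sensors, 0, 2, 1 and 3 were called. *Map3k5*, the gene of the kinase ASK1 downstream of IRE1 alpha, was lower on days 2, 3 and 4 (-0.49, -0.41 and -0.51), *Creb3* was higher on day 2 (0.30) and *Creb3l2* was lower on day 4 (-0.57), the last pair being genes of ER-anchored transcription factors.

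Of these lists, the PERK and ATF4 branch had the largest share of genes called on days 2, 3 and 4. Of all tested genes, 8.17%, 12.1% and 21.5% were called on these days. The lists were chosen with earlier results of these data known, so this ranking is a description. Of its 10 genes, 0, 8, 7 and 8 were called on days 1 to 4, with 7 higher on each of days 2, 3 and 4 and 1 lower on days 2 and 4, and median log2 differences of -0.02, 0.46, 0.97 and 0.92. Past the log2 fold change of 1.5 were 4 genes on day 3 and 3 on day 4. *Ddit3*, which encodes the transcription factor CHOP, was at 7.254 and 8.101 CPM in Trex1 FL/FL and 6.068 and 7.469 CPM in Trex1 WT/FL controls on day 1. By day 3 it was at 79.9 and 79.13 against 20.06 and 25.46 CPM. The genotypes overlapped on day 1 and were far apart on day 3, and the log2 difference was 1.22 on day 2 (adjusted p = 2.94e-08), 1.81 on day 3 (adjusted p = 2.02e-11) and 1.72 on day 4 (adjusted p = 8.2e-12).

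*Trib3*, which encodes a pseudokinase induced by CHOP and ATF4, was at 30.08 and 27.91 CPM in Trex1 FL/FL and 3.35 and 3.194 CPM in Trex1 WT/FL controls on day 3. Its log2 differences were 1.04, 3.15 and 2.41 on days 2 to 4 (adjusted p = 0.000637, 9.18e-10 and 7.84e-09). *Chac1*, which encodes a glutathione-degrading enzyme, was at 86 and 128 counts against 9 and 26 counts on day 3, and its log2 differences were 1.06, 2.67 and 2.17. Chosen after their values were seen, *Atf4* and *Eif2ak3* are named because they are the regulators of this branch. *Atf4* was at 174.5 and 166.3 CPM in Trex1 FL/FL and 87.69 and 84.31 CPM in Trex1 WT/FL controls on day 3, a log2 difference of 0.99 (SE 0.0677, adjusted p = 3.78e-11), and was also higher on day 2 (0.42) and day 4 (0.49). The PERK gene *Eif2ak3* was at 20.68 and 20.73 CPM in Trex1 FL/FL and 37.42 and 38.26 CPM in Trex1 WT/FL controls on day 4, and was lower on day 2 (-0.38, adjusted p = 0.00175) and day 4 (-0.87, adjusted p = 5.31e-09). ATF4 is translated in response to several eIF2 alpha kinases, of which PERK is the one in the ER, and transcript counts do not tell which of them was active.

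**Figure D3:**
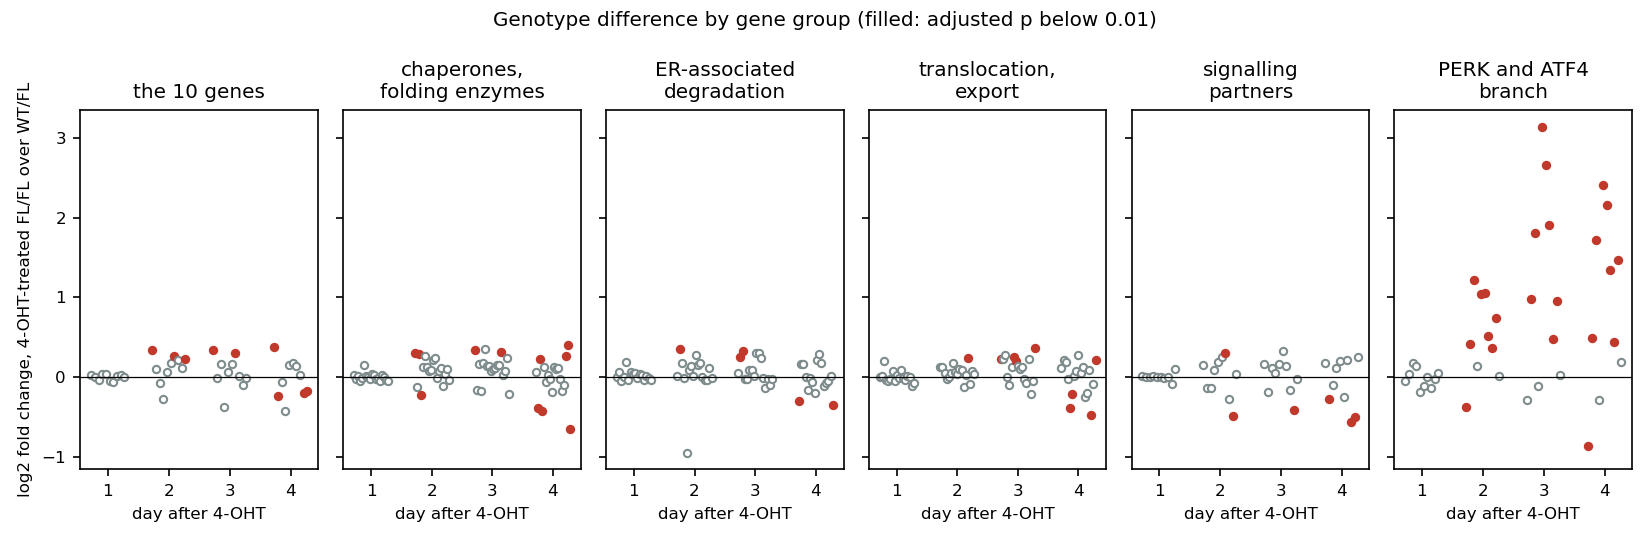
Log2 difference after 4-OHT, Trex1 FL/FL over Trex1 WT/FL (vertical axis), for every gene of the 10 members and the other gene lists (horizontal axis) on days 1 to 4. Each point is 1 gene and filled red points have an adjusted p below 0.01. The points of the PERK and ATF4 list reach 3.15 on day 3 (*Trib3*), while the called members lie between -0.24 and 0.37 on all days.

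Over the 16 group means of log2 CPM, the members that followed *Hspa5* most closely were *Xbp1* (Pearson's r = 0.89), *Sdf2l1* (0.85), *Calr* (0.84), *Hsp90b1* (0.79) and *Pdia4* (0.77), followed by *Atf6* (0.61) and *Herpud1* (0.53). *Dnajb9* (-0.38) and *Ern1* (-0.41) had negative values. On average over the arms, both moved opposite to *Hspa5* only from day 2 to day 3, and in the same direction over the other steps. *Hsp90b1* and *Pdia4* were the most alike pair of members (r = 0.995). Among all other tested genes, *Cab39l* (0.979), *Atp10a* (0.959), *Slfnlnc* (0.955), *Stk38l* (0.953) and *Wars1* (0.952) had the patterns most like that of *Hspa5*. The group means share the day of harvest and the libraries, and these values are a description of 16 points. Of 5 genes of the STING list, 0, 1, 0 and 1 were called on days 1 to 4, against 0.0197%, 8.17%, 12.1% and 21.5% of all tested genes. *Sting1* was not called (log2 differences of -0.11, 0.04, -0.19 and 0.19 on days 1 to 4), with 62.5 and 67.44 CPM in Trex1 FL/FL and 68.49 and 80 CPM in Trex1 WT/FL controls on day 3. *Cgas*, the sensor gene, was at 24.61 and 21.94 against 11.88 and 12.67 CPM on day 4 and was higher on day 2 (0.49, adjusted p = 0.00105) and day 4 (0.92, adjusted p = 9.64e-08).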

How the data were processed

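The authors prepared RNA-seq libraries from the BMDMs, demultiplexed the reads with the JE demultiplexer and checked them with FastQC 11.9. They estimated transcript abundance with Salmon on GRCm39 and summed it to genes with tximport, and the submitters' processing notes name DESeq2 1.32. The Salmon version, the annotation release and the use of strand are not given in the sources used here. The deposited table holds 1 estimated count per gene and library, a whole number as deposited and not normalized, for 54281 Ensembl identifiers, of which 51048 were named with GENCODE vM39. Identifiers without a name held 0.32% of the counts. The members and gene lists were chosen with earlier results of these data known. All results were computed from these counts.

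Genes were filtered with edgeR's filterByExpr (minimum count 10), which left 15257, scaled with TMM factors and fitted over all 32 libraries with 1 mean per group, leaving 16 residual degrees of freedom, by edgeR 4.0.16 (quasi-likelihood test, R 4.3.3). Depth was 35120505 to 63760884 counts per library, the common biological coefficient of variation was 0.0912, and CPM were calculated with TMM-scaled library sizes. The SE of a log2 difference is its absolute value divided by the square root of the F statistic of its test. P-values were adjusted by the Benjamini-Hochberg method over all tested genes in each comparison, and a gene was called at an adjusted p below 0.01. The script was tested on simulated data. Genotypes were compared within treatment and day, treatments within genotype and day, and the interaction, the change between consecutive days and the day means were tested in the same fit. The genes named were all 10 members, *Trex1*, *Sting1* and *Cgas*, the 2 called genes with the largest log2 difference of each other list and day, and the 5 genes most like *Hspa5* over 16 group means. *Atf4* and *Eif2ak3* were added after their values were seen. *Rabepk*, *Ccdc117* and *Gm66230* were named because they overlap a member, and other genes as cell type markers. Alternatives were an adjusted p below 0.05, an added log2 fold change above 1.5, RLE and upper-quartile factors, no filter, a filter at 1 CPM in at least 2 libraries, only the libraries of a comparison, DESeq2 1.42.0 and leaving out each library. A word shared between genes is a run of 31 bases present in transcripts of both.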

Additional observations from a re-analysis of the deposited data

Results flagged for a closer look

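Results are given here where the response to 4-OHT differed between the genotypes, or the genotype difference after 4-OHT changed between consecutive days, by a test of that difference at an adjusted p below 0.01 in edgeR's quasi-likelihood test. Values are differences of log2 differences. Among the members, the interaction of genotype and 4-OHT was 0.3557 for *Hspa5* on day 2 and 0.3556 on day 3, and on day 4 it was 0.4691 for *Ern1*, -0.3561 for *Pdia4* and -0.2903 for *Calr*. The *Hspa5* genotype difference moved by 0.317 from day 1 to day 2.

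Of the PERK and ATF4 list, the interaction was 1.252, 1.834 and 1.354 for *Ddit3* on days 2, 3 and 4, 0.9213 and 0.4306 for *Atf4* on days 3 and 4, 3.367 and 2.427 for *Trib3* on days 3 and 4, 2.648 for *Chac1* on day 3, and -0.8952 for *Eif2ak3* on day 4. The genotype difference changed by 1.034 for *Ddit3* from day 1 to day 2, by 0.5677 for *Atf4* and 2.105 for *Trib3* from day 2 to day 3, and by -0.4956 for *Atf4* and -0.586 for *Eif2ak3* from day 3 to day 4.

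Of the other lists, the interaction was -0.6022, -0.5316 and -0.4335 for *Map3k5* on days 2, 3 and 4, and 0.4376 for *Srprb* on day 3. On day 4 it was -0.3401 for *Dnajc10*, -0.459 for *Uggt1*, -0.3734 for *Vcp*, -0.3101 for *Sec63*, -0.4396 for *Sec24d*, -0.5123 for *Creb3l2* and 1.071 for *Cgas*. From day 3 to day 4 the genotype difference changed by -0.4968 for *Ero1a*, -0.4316 for *Uggt1*, -0.3431 for *Sel1l* and -0.3207 for *Vcp*.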

How the results depend on the processing

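No called value of a member changed sign under any alternative. The *Hspa5* genotype difference after 4-OHT on days 2, 3 and 4 was called in 11 of 12 alternatives each (0.32 to 0.36, 0.33 to 0.36 and 0.31 to 0.44), the exception being the added log2 fold change above 1.5, under which every count of called members was 0. Of these alternatives, the adjusted p below 0.05 reused the main fit and could not lose a call made below 0.01. No scaling moved the median log2 difference of all genes by over 0.1. The share of higher genes among those called in untreated cells on day 4 was 20% of 10 with TMM and 46.7% of 15 with upper-quartile factors, and that of 4-OHT in Trex1 WT/FL on day 4 was 24.2% of 33 and, with RLE factors, 10.7% of 28. No paired analysis was possible because neither labels nor columns carry a replicate number or an animal.

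At an adjusted p below 0.05, the members called went from 4 to 7 (genotype after 4-OHT, day 4), 0 to 1 (untreated, day 4), 3 to 5 (4-OHT in Trex1 FL/FL, day 2), 1 to 2 on days 2 and 3 and 3 to 7 on day 4 (interaction), and 1 to 2 (change from day 1 to day 2). With RLE factors, genotype after 4-OHT on day 4 went from 4 to 2, and with upper-quartile factors the change from day 1 to day 2 went from 1 to 0. With only the libraries of the comparison, genotype after 4-OHT on day 4 went from 4 to 1, the day 4 interaction from 3 to 1 and the change from day 1 to day 2 from 1 to 0. Without a filter, untreated days 1 and 4 and 4-OHT in Trex1 FL/FL on day 1 went from 0 to 1, the day 3 interaction from 1 to 2 and the change from day 1 to day 2 from 1 to 0. With DESeq2, untreated day 4 went from 0 to 1, 4-OHT in Trex1 FL/FL on day 2 from 3 to 5, and the interaction from 1 to 2 on days 2 and 3 and from 3 to 5 on day 4. The changes listed so far are those large in proportion to the main count. Smaller ones also occurred between genotypes after 4-OHT. Day 2 went from 3 to 2 with only the libraries of the comparison. Day 3 went from 2 to 3 at an adjusted p below 0.05, without a filter, or with only those libraries. Day 4 went from 4 to 3 without a filter and from 4 to 5 with DESeq2. Smaller changes in the other comparisons are not listed. The causes were not tested.

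Leaving out 1 library at a time gave 1 to 3, 1 to 1 and 1 to 5 members called between genotypes after 4-OHT on days 2, 3 and 4, 0 to 1 in untreated cells on day 1, and 0 to 1, 2 to 3, 2 to 3 and 2 to 6 for 4-OHT in Trex1 FL/FL on days 1 to 4. It gave 0 to 1, 0 to 1, 0 to 1 and 1 to 4 for the interaction on days 1 to 4, 0 to 1 for the change from day 1 to day 2, and 7 to 8, 9 to 9 and 7 to 9 for the day steps, and 0 otherwise. Between genotypes after 4-OHT, the count fell to 1 on day 2 without either Trex1 FL/FL library or replicate 2 of Trex1 WT/FL, to 1 on day 3 without any 1 of its libraries, and on day 4 to 1 without replicate 1 of Trex1 FL/FL or replicate 2 of Trex1 WT/FL and to 2 without replicate 2 of Trex1 FL/FL. In those fits the lone library was assumed to vary like the other groups. The day 1 counts of 1 came from *Sdf2l1* without replicate 1 of untreated Trex1 FL/FL. For 4-OHT in Trex1 FL/FL on day 4, the count of 5 fell to 2 without replicate 1 of the treated or replicate 2 of the untreated group.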
